A study of Mus musculus with 4 samples.

Results

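The ubiquitin-specific protease (Usp) family was taken as every protein-coding gene of GENCODE release M21 (mm10) whose symbol starts with Usp and a digit, which gave 56 of 21951 protein-coding genes. A cluster of reads was given to a member when the centre of the cluster lay in the span of the gene on the same strand. Ubiquitin-specific proteases are the largest family of deubiquitinases, cysteine proteases that remove ubiquitin from proteins or trim ubiquitin chains and so set protein stability, histone marks, DNA repair and membrane traffic. Spermatogenesis depends on this system at many steps, since histones are ubiquitinated and replaced and most of the cytoplasm is lost as spermatids elongate. IGF2BP3 is an RNA-binding protein of the cytoplasm that binds mRNAs, often in the 3′UTR, and is known to affect their stability and translation. The question asked here is which mRNAs of the family carried IGF2BP3 clusters, and where.

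IGF2BP3 eCLIP-seq was made from testes of wild type C57BL/6 mice at 8 weeks of age, with no treatment. Paired testes were triturated and crosslinked by UV light, and the labels describe the material as germ cells and somatic cells. Each of 2 replicates had 1 IP library, made with an IGF2BP3 antibody (Abcam), and 1 SMInput library, RNA of the same lysate without an antibody that serves as its background, so 4 libraries were used. The study design text names 3 biological replicates and an IgG arm, and only these 2 replicates of IP and SMInput were used here. Whole testis was measured, so a difference between cell types in a member's mRNA cannot be told apart from a difference in binding. Markers of the tissue were found as the label implies. The spermatid markers Prm1, Prm2, Tnp1, Tnp2, Odf1 and Acrv1 all had clusters, and the deepest cluster of Prm2, a protamine of sperm chromatin, held 426 SMInput reads in replicate 1 and 665 in replicate 2. All 4 spermatocyte and all 4 spermatogonium markers had clusters too, as did the 4 Sertoli cell, 5 Leydig cell and 3 macrophage markers. The deepest cluster of the Leydig cell hormone Insl3 held 319 and 521 SMInput reads, but that of Star, another Leydig cell marker, held 3 and 8, near the 2 and 2 of the macrophage marker Adgre1. The 3 liver genes Alb, Apoa2 and Ttr had 0 clusters.

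For each cluster the authors' tables give the log2(fold change) of IP over SMInput reads, scaled to the libraries, and the −log10(P value) of that comparison. A cluster was called significant when both values were at least 2, which is a 4-fold enrichment or more. Read numbers recovered from these values put the depth of replicate 1 at 5133438 reads for the IP and 8706391 for SMInput, and that of replicate 2 at 4637612 and 16696122. Members held 2329 clusters in replicate 1 and 1547 in replicate 2. Of these, 95 were significant in replicate 1, which is 4.08% (95% Wilson interval 3.35% to 4.96%) beside 4.94% of the clusters in all protein-coding genes. In replicate 2, 150 were significant, which is 9.70% (8.32% to 11.3%) beside 13.2%. The members' share of significant clusters was therefore close to that of all genes in replicate 1 and lower in replicate 2. Wilson intervals on clusters, here and below, count each cluster as a separate draw. Neighbouring clusters of a gene are not independent, so these intervals may be too narrow.

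Counted by gene, 48 of the 56 members had a cluster in at least 1 replicate. A significant cluster was found in 28 of the 48 in replicate 1 (58.3%, beside 39.4% of the 14580 protein-coding genes with a cluster) and in 42 in replicate 2 (87.5%, beside 55.3%). Both replicates had one in 26 members (54.2%, beside 33.0%). This count fell to 16 with Benjamini-Hochberg adjusted P below 0.05, to 15 with at least 10 IP reads and to 5 with both thresholds at 3. Shares over all genes were not computed at these settings, so the comparison with 33.0% holds for the main thresholds alone. In 12 members significant clusters of the replicates overlapped by at least 1 base (25.0%, 95% Wilson interval 14.9% to 38.8%, beside 14.0%). Members are long genes with many clusters. Their median span was 56596 bases against 26380 over all genes with a cluster, and their median number of clusters was 36 in replicate 1 and 22.5 in replicate 2, against 11 and 7. A gene with more clusters has more chances of a significant one, and how far this accounts for the members' higher share of genes was not tested.

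The 3′UTR was where the largest share of the family's clusters passed both thresholds. In replicate 1, 40 of 200 member clusters in 3′UTRs were significant (20%), against 34 of 884 in coding sequence (3.85%) and 21 of 1201 in introns (1.75%). In replicate 2 these were 62 of 157 (39.5%), 37 of 743 (4.98%) and 51 of 611 (8.35%). None of the 44 and 36 clusters in 5′UTRs was significant, beside 5.09% and 8.50% over all protein-coding genes. For introns the share over all genes was 2.08% and 10.9%. The median log2(fold change) of all member intron clusters was 1.76 and 1.85, beside 1.57 and 2.05 for 3′UTR clusters. The same medians in all genes were 1.98 and 1.85, beside 1.76 and 1.85. By the median, introns were thus not below 3′UTRs in replicate 1. Over all protein-coding genes, 19.4% and 34.4% of the 3′UTR clusters and 5.29% and 7.97% of the coding clusters passed, so 3′UTR clusters passed more often than coding ones in the transcriptome as in the family. The share of significant member clusters that lay in 3′UTRs was 42.1% for replicate 1 (95% Wilson interval 32.7% to 52.2%) and 41.3% for replicate 2 (33.8% to 49.3%), beside 43.6% and 37.1% over all genes. Within single genes the pattern was frequent: the median log2(fold change) of 3′UTR clusters was above that of coding clusters in 34 of the 39 members that had both kinds in replicate 1 (87.2%, beside 73.7% of all genes) and in 34 of 38 in replicate 2 (89.5%, beside 79.7%).

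Among the members that act in DNA repair, 6 of 7 had a significant cluster in both replicates, beside 54.2% of the family and 33.0% of all genes, and Usp1 and Usp28 had overlapping ones (28.6%, beside 25.0% and 14.0%). Usp28, Usp45, Usp46 and Usp48 passed in replicate 1 on clusters of 7 IP reads against 1 SMInput read, and with Benjamini-Hochberg adjusted P below 0.05 only Usp1 and Usp7 kept both replicates, so the group's share rests on few reads. Usp1 encodes the deubiquitinase of FANCD2 and PCNA, and male mice without it are infertile. It spans chr4:98923810-98935543 on the plus strand, and by the lower of the replicate values its best overlapping site came first in the family. The authors' tables give it 32 clusters in replicate 1, of which 13 were significant, and 24 in replicate 2, of which 6 were. All 10 of its 3′UTR clusters in replicate 1 and all 6 in replicate 2 passed. Their log2(fold change) ran from 2.23 to 4.33 and from 2.94 to 4.91. Its coding clusters had medians of 1.26 and 0.90, and 3 of 18 and 0 of 15 of them passed. The enrichment was thus concentrated in a 3′UTR of 738 bases, all of it in exon 9, the last exon.

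The overlapping clusters of Usp1 joined into 3 sites. The first ran over chr4:98935142-98935261, 396 bases into the 3′UTR at its middle, with 4 clusters in replicate 1 (2.82 to 3.95) and 3 in replicate 2 (2.94 to 3.10). The second, chr4:98935302-98935356, had 2 clusters in replicate 1 (2.97 and 3.16) and 1 in replicate 2 (4.02). The third, chr4:98935397-98935511, had the deepest clusters of the gene and lay near the end of the transcript. Its best pair of clusters overlapped over 45 bases, 57 bases before the annotated end of the mRNA. In replicate 1 this cluster had 178 IP reads and 15 SMInput reads, a log2(fold change) of 4.33 (95% exact counting interval 3.57 to 5.20) and a −log10(P value) of 55.4. In replicate 2 it had 92 and 11 reads, a log2(fold change) of 4.91 (4.01 to 5.96) and a −log10(P value) of 60.5. Ranked by the smaller of both values, this site placed Usp1 at rank 97 of the 2048 protein-coding genes with overlapping significant clusters.

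**Figure D1:**
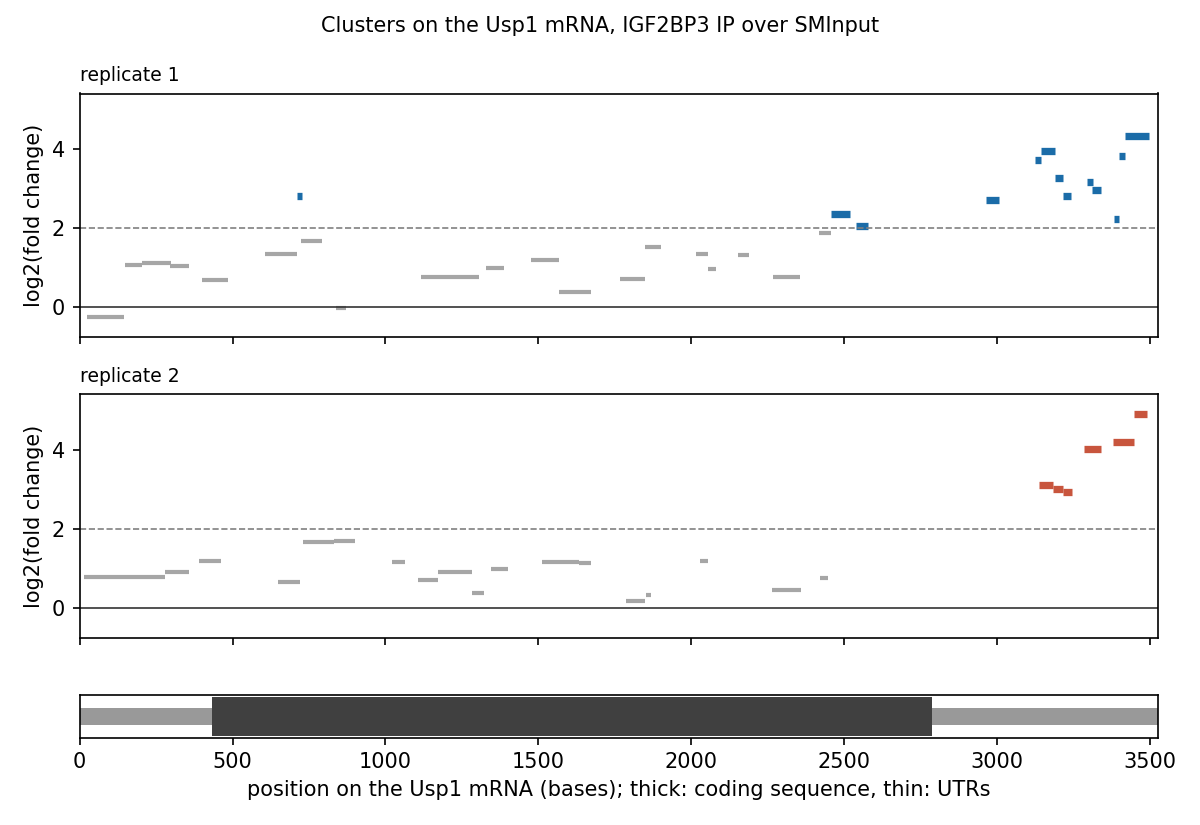
Clusters on the spliced Usp1 mRNA, with the position in bases on the x axis and the log2(fold change) of IGF2BP3 IP over SMInput on the y axis, in replicate 1 (top) and replicate 2 (middle). Coloured bars are significant clusters, grey bars the others, the dashed line is the threshold of 2, and the lowest panel shows the coding sequence (thick) and UTRs (thin). All 10 and 6 clusters of the 3′UTR lie above the threshold.

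Usp1 works as a complex with the WD-repeat protein Wdr48, and the Wdr48 mRNA carried an overlapping 3′UTR site as well. That site, at chr9:119926437-119926456, had a log2(fold change) of 4.15 in replicate 1 (21 IP reads, 2 SMInput reads) and 3.17 in replicate 2 (25 and 10). Usp12 and Usp46, paralogs that also depend on Wdr48, had no overlapping site. Usp28, a deubiquitinase of the DNA damage response that stabilises Myc, had its site in the 3′UTR at chr9:49042272-49042299, in exon 24 of 24. Its values were 3.57 in replicate 1 and 3.85 in replicate 2. They rest on 7 IP reads against 1 SMInput read and on 4 against 1, so the counting intervals were wide, from 0.61 to 9.06 and from 0.51 to 9.47. This was the only one of the 12 best sites with a Benjamini-Hochberg adjusted P above 0.05, at 0.0847 and 0.0504 over all clusters of the replicate.

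Of the 13 members that act on histones and chromatin, 12 had a cluster, 6 had a significant one in both replicates, and 3 had overlapping sites, all in 3′UTRs. These shares of 50% and 25% were near the family's own, beside 33.0% and 14.0% of all genes. Usp22, the deubiquitinase of histone H2B in the SAGA coactivator, had its site at chr11:61152405-61152471 on the minus strand, 2033 bases into a 3′UTR of 2686. The log2(fold change) was 3.08 in replicate 1 (25 IP reads, 5 SMInput reads; interval 1.67 to 4.83) and 3.05 in replicate 2 (30 and 13; 2.07 to 4.12). These were among the closest values between the replicates. Usp26, an X-linked gene expressed mainly in testis, had all of its significant clusters in the 3′UTR, 3 in each replicate. Its overlapping site at chrX:51754344-51754395 had 3.57 in replicate 1 (14 IP reads, 2 SMInput reads; interval 1.45 to 6.75) and 3.07 in replicate 2 (14 and 6; 1.60 to 4.74). Usp42, linked to H2B and p53, had its site soon after the stop codon, 113 bases into the 3′UTR, at chr5:143711240-143711282. The values were 2.48 in replicate 1 (23 IP reads, 7 SMInput reads; interval 1.21 to 3.94) and 3.55 in replicate 2 (26 and 8; 2.36 to 4.90). The difference of 1.07 was the largest among the 12 best sites, and the intervals still overlapped. In replicate 2 the neighbouring clusters of Usp42 were significant too, and the deepest, chr5:143711099-143711228, had 106 IP reads against 65 SMInput reads and a log2(fold change) of 2.55. Its counterpart in replicate 1 reached 1.40 and was below the threshold.

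Usp34 differed from the other members with overlapping sites in where those sites lay. It encodes a very large deubiquitinase that acts on axin in Wnt signalling, with a coding sequence of 10749 bases in 80 exons. It had the most clusters of the family, 197 in replicate 1 and 160 in replicate 2, and the most significant ones, 20 and 25. In each replicate 16 of these lay in coding sequence. The median of all its coding clusters, 122 in replicate 1 and 119 in replicate 2, was 1.08 and 1.09. Its 3′UTR held only 2 clusters in each replicate. The share of significant member clusters in coding sequence was 35.8% for replicate 1 (95% Wilson interval 26.9% to 45.8%) and 24.7% for replicate 2 (18.5% to 32.1%), and both intervals cover the 28.9% and 20.8% of all genes. Since Usp34 holds so many of these clusters, the share is lower by construction without it, at 24.0% and 16.8%. That in 3′UTRs is higher without it, at 53.3% and 48.0%. In the other direction, Usp1 held 10 of the 40 significant 3′UTR clusters of replicate 1 and 6 of the 62 of replicate 2. The shares without Usp1 were not computed.

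The overlapping clusters of Usp34 formed 6 sites, all in coding sequence, and 4 of them lay close together in exons 77 to 79. The best of these, at chr11:23486913-23486959 in exon 77, was 9818 bases into the coding sequence. It had a log2(fold change) of 2.57 in replicate 1 (21 IP reads, 6 SMInput reads; interval 1.21 to 4.17) and 2.78 in replicate 2 (21 and 11; 1.66 to 3.98). Exon 78 held a pair of sites, with 2.76 and 3.18 in replicate 1 and 2.15 and 2.14 in replicate 2. The site in exon 79, at chr11:23488207-23488279, had 3.22 in replicate 1 and 2.17 to 2.19 in replicate 2. The remaining sites lay in exon 6 (2.35 and 2.33) and in exon 68 (2.04 and 3.14). In the 3′UTR of Usp34, 2 clusters passed in replicate 2 (2.32 and 2.24) and none in replicate 1, where the highest value was 1.57.

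**Figure D2:**
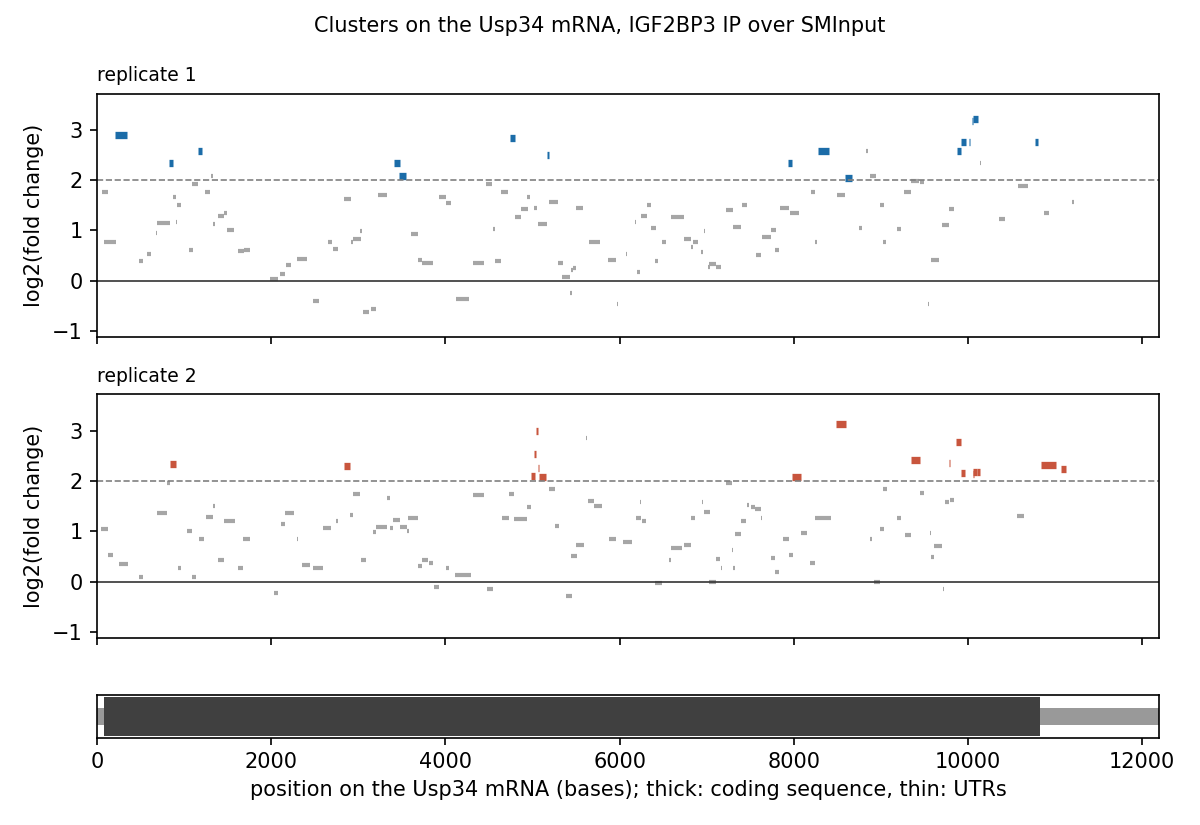
Clusters on the spliced Usp34 mRNA, with the position in bases on the x axis and the log2(fold change) of IGF2BP3 IP over SMInput on the y axis, in replicate 1 (top) and replicate 2 (middle). Coloured bars are significant clusters, grey bars the others, including some above the dashed line at 2 whose −log10(P value) is below 2, and the lowest panel shows the coding sequence (thick) and UTRs (thin). In each replicate 16 coding clusters are significant, with a group of them towards the end of the coding sequence.

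Usp14 is the deubiquitinase of the proteasome that trims chains from substrates, and the ataxia mouse mutant, which has little of it, also has defects in spermatogenesis. All of its significant clusters, 3 in replicate 1 and 2 in replicate 2, lay in the early part of a 3′UTR of 3031 bases on chromosome 18. The best overlapping site, from 9995666 to 9995733, had a log2(fold change) of 2.52 in replicate 1 (54 IP reads, 16 SMInput reads; interval 1.69 to 3.42) and 3.17 in replicate 2 (20 and 8; 1.93 to 4.56). Its neighbour upstream had 4.57 in replicate 1, the highest value of the family there, on 14 IP reads against 1 SMInput read, and met a significant cluster of 2.17 in replicate 2. Of the other proteases of this role, Usp5, which takes apart free ubiquitin chains, had a significant 3′UTR cluster in replicate 2 alone, with 25 IP reads, 13 SMInput reads and a log2(fold change) of 2.79. In replicate 1 the clusters it met reached 1.69. Its paralog Usp13 had no cluster.

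Among the members of endosomes, the endoplasmic reticulum and mitochondria, 4 of 8 had a significant cluster in both replicates (beside 33.0% of all genes) and 3 had overlapping sites (beside 14.0%). Usp8 controls the sorting of receptors at endosomes and has been linked to the formation of the acrosome, the secretory cap of the sperm head. Its site lay late in a 3′UTR of 684 bases, at chr2:126759084-126759101, with 2.20 in replicate 1 (27 IP reads, 10 SMInput reads; interval 1.10 to 3.41) and 2.05 in replicate 2 (70 and 61; 1.53 to 2.57). Usp8 had 5 significant 3′UTR clusters in replicate 1, and the strongest, chr2:126758837-126758890 with 3.60, met a cluster of 1.33 in replicate 2. Usp32 is a membrane-bound protease that acts on the endosomal GTPase Rab7. Its site at chr11:84985067-84985120 in the last of 34 exons had 2.3 in replicate 1 (32 IP reads, 11 SMInput reads; interval 1.28 to 3.44) and 2.12 in replicate 2 (47 and 39; 1.47 to 2.77). Usp6nl matches the symbol rule but encodes a GTPase-activating protein for Rab proteins, without a protease domain. Its site at chr2:6442564-6442601, in a 3′UTR of 4648 bases, had 3.76 in replicate 1 and 2.85 in replicate 2, on 8 IP reads against 1 SMInput read and on 6 against 3. Those intervals ran from 0.86 to 9.23 and from 0.62 to 5.48.

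The last pair of genes with overlapping sites act on regulators of the cell cycle and on other targets. Usp37 stabilises cyclin A at the start of S phase, and its site at chr1:74438840-74438863 on the minus strand lay 540 bases into the 3′UTR. The log2(fold change) was 2.25 in replicate 1 (14 IP reads, 5 SMInput reads; interval 0.69 to 4.07) and 2.21 in replicate 2 (27 and 21; 1.33 to 3.11). Usp2, which deubiquitinates cyclin D1 and is strongly expressed in spermatids, had the deepest SMInput cluster of the family, with 139 reads in replicate 1 and 239 in replicate 2. Its overlapping site at chr9:44095240-44095281 had 2.14 in replicate 1 (39 IP reads, 15 SMInput reads; interval 1.25 to 3.11) and 2.26 in replicate 2 (28 and 21; 1.39 to 3.15). The 3′UTR of Usp2 held 4 significant clusters in replicate 2, of which the deepest, chr9:44094742-44094822, had 73 IP reads and a log2(fold change) of 2.68, and met a cluster of 1.85 in replicate 1.

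**Figure D3:**
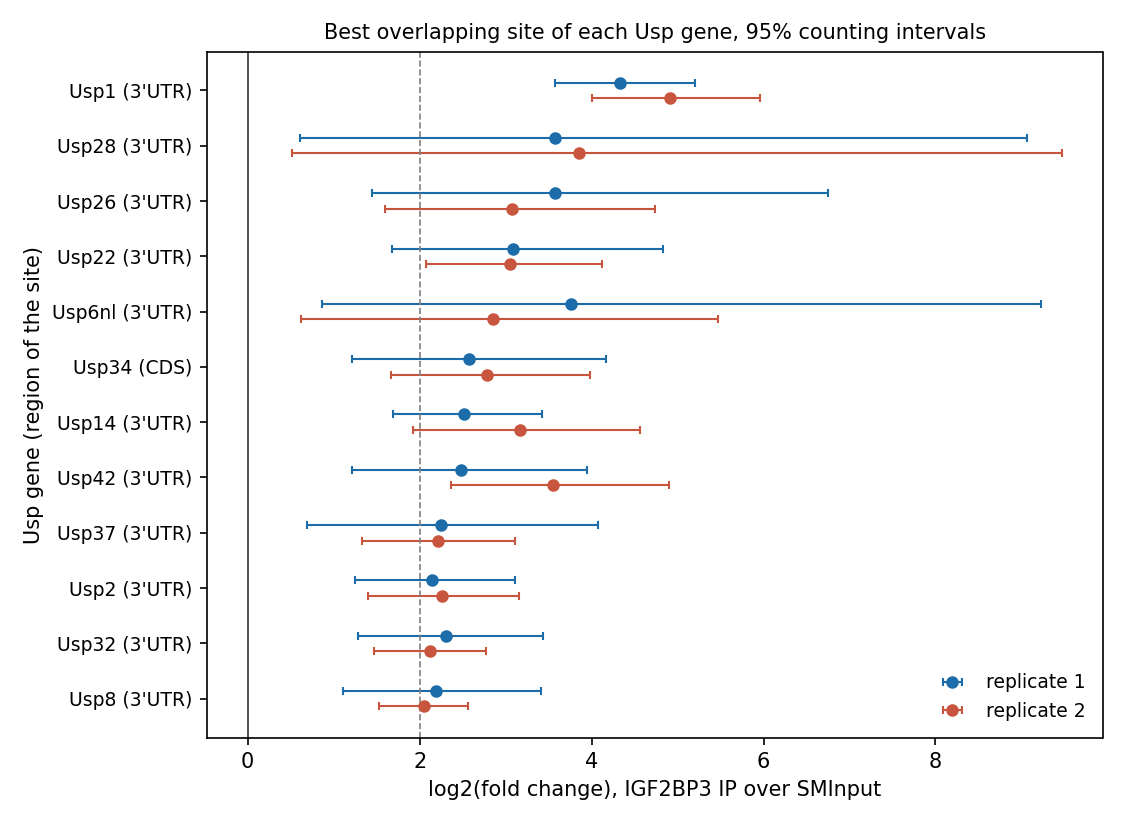
Best overlapping site of each of the 12 Usp genes with significant clusters of both replicates, with the log2(fold change) of IGF2BP3 IP over SMInput on the x axis and the gene, with the region of its site, on the y axis. Points are the values of replicate 1 and replicate 2, bars are 95% exact counting intervals, and the dashed line is the threshold of 2. Usp1 has the highest values, 4.33 and 4.91, and Usp28 and Usp6nl have the widest intervals.

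Of the 12 best sites, 11 lay in a 3′UTR and 1, that of Usp34, in coding sequence. The regions of such sites over all protein-coding genes were not counted, so this split is not read as a trait of the family. The counting intervals of the replicates overlapped at all 12 sites, which were picked for passing in both replicates, and replicate 2 had the higher value at 6. With touching clusters joined, the 12 genes had 19 overlapping sites, 13 in 3′UTRs and 6 in coding sequence. That split has no count over all genes either. Of the 11 sites in 3′UTRs, 4, those of Usp6nl, Usp14, Usp37 and Usp42, lay in the part nearer the stop codon. The sites of Usp2, Usp8, Usp22, Usp26, Usp28 and Usp32 lay past the middle, and that of Usp1 closest to the end. The 3′UTRs of these 12 genes had a median length of 1516.5 bases, against 1234.5 bases in the 36 members with clusters and no overlapping site.

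Short sequences related to those known from m6A sites and from IGF2BP binding were counted on the strand of the gene, within 50 bases of the centres of significant 3′UTR clusters. The authors reported GAACA and AAACC from the overlapping IGF2BP3 peaks of these same data, so counts of these sequences are not independent of that choice. GGAC was in 8 of 40 member windows in replicate 1 (20%) and 8 of 62 in replicate 2 (12.9%), beside 25.3% and 23.5% of all 3′UTR windows. GAACA was in 12.5% and 11.3%, beside 8.36% and 7.80%. AAACC was in 10% and 9.68%, beside 8.83% and 8.57%. The member windows were poorer in G and C than those of all genes, with a median of 36.6% in replicate 1 and 41.1% in replicate 2 against 45.5% and 44.6%. ACACA was in 5% and 6.45%, beside 12.0% and 11.1%. In coding sequence GGAC was in 14 of 34 member windows (41.2%) in replicate 1 and 11 of 37 (29.7%) in replicate 2, beside 29.8% and 29.7%. Windows of neighbouring clusters, such as those of Usp1, share bases, so these counts are a description with no test.

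The sequences of the 6 best sites are shown, chosen by the lower of the replicate values although those of Usp28 and Usp6nl rest on few reads, each as the middle of the bases that both clusters cover, from the mm10 genome, 5′ to 3′ on the strand of the gene. Capitals mark a match to 1 of the 4 short sequences counted around the clusters.
Usp1, 3′UTR, chr4:98935472-98935501, plus strand: acttagatgtgtgacctttaacttttttaa
Usp28, 3′UTR, chr9:49042272-49042299, plus strand: gaattttgatcctttctctccctttttt
Usp26, 3′UTR, chrX:51754355-51754384, minus strand: ggaatggttcggtgtcatcctcccctcctg
Usp22, 3′UTR, chr11:61152424-61152453, minus strand: cgcacatgcatctggccctccctctctgtc
Usp6nl, 3′UTR, chr2:6442568-6442597, plus strand: gcttccccttctcacaggctttctctggca
Usp34, coding sequence, chr11:23486922-23486951, plus strand: tattgtctACACAttcatgACACAtttcct
The coding site of Usp34 held ACACA at 2 places, and the 3′UTR sites shown held none of the 4 sequences. Their GC content ran from 26.7% in Usp1 to 63.3% in Usp22.

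A significant cluster in both replicates, but no overlap between them, was found in 14 members (29.2%, beside 19.0% of all genes with a cluster): Usp4, Usp7, Usp9x, Usp10, Usp16, Usp25, Usp31, Usp33, Usp40, Usp44, Usp45, Usp46, Usp47 and Usp48. The group includes Usp7, the deubiquitinase of Mdm2 and p53, and Usp9x, an X-linked protease of many substrates. By the smaller of the highest values in each replicate, Usp10 came first, with 3.76 in replicate 1, in the 3′UTR on 8 IP reads against 1 SMInput read, and 3.85 in replicate 2, in introns on 4 against 1. The intervals, 0.86 to 9.23 and 0.51 to 9.47, are too wide for this order to carry weight. Usp10 is a partner of the stress granule protein G3bp1. All 24 and 20 of its clusters also lie in Gm20388, an overlapping gene on the same strand, so they cannot be given to either. Usp25, Usp45 and Usp48 followed with equal values, 3.57 in replicate 1, on 7 IP reads against 1 SMInput read, and 3.85 in replicate 2, on 4 against 1. Usp45, which acts with the repair nuclease Ercc1, had these clusters in the 3′UTR at chr4:21836534-21836606 and chr4:21836725-21836774. In Usp47 and Usp7, clusters with more reads were significant in 1 replicate and met a lower one in the other. The deepest, chr7:112110146-112110298 in the 3′UTR of Usp47, had 41 IP reads and 2.03 in replicate 1, and the clusters it met in replicate 2 reached 0.85.

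Significance in replicate 2 alone was found in 16 members (33.3%, beside 22.3% of all genes with a cluster): Usp3, Usp5, Usp9y, Usp11, Usp12, Usp20, Usp21, Usp24, Usp27x, Usp30, Usp36, Usp38, Usp39, Usp49, Usp53 and Usp54. The highest values were those of Usp36, a protease of the nucleolus, with 4.66 on 7 IP reads against 1 SMInput read in its 3′UTR, and of Usp9y, with 4.43 on 6 against 1 in coding sequence. Usp9y is the Y-linked copy of Usp9x, and its 3 significant clusters all lay in coding exons 39, 42 and 43. Usp24 had the most, 9 significant clusters of its 85, spread over introns, coding sequence and 3′UTR with 5 to 14 IP reads each. Replicate 1 had 116 clusters in this gene, none of them significant. Of the clusters of Usp49, 59 of 60 and 34 of 37 also lie in Gm20517, a gene on the same strand. Significance in replicate 1 alone was found in 2 members (4.17%, beside 6.34%). Usp19, a protease anchored in the endoplasmic reticulum, had a coding cluster of 4.08 on 10 IP reads against 1 SMInput read, which met a cluster of 1.41 in replicate 2. Usp15, a regulator of TGF-β signalling, had a coding cluster of 2.50 on 10 reads against 3, which met a cluster of 1.33.

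The remaining members had no significant cluster. Usp29, Usp35, Usp43 and Usp50 had clusters below the thresholds. Usp50, which lacks catalytic activity, had 14 and 11 clusters, and its highest log2(fold change) was 3.08 in replicate 1 and 3.43 in replicate 2, both short of the −log10(P value) of 2. Usp43 had 8 and 2 clusters, with highest values of 2.35 and 2.85 on at most 3 and 4 IP reads. Usp29, an imprinted gene next to Peg3, had 2 clusters in replicate 1 and 0 in replicate 2, and Usp35 had 3 and 0. No cluster in either replicate was listed for 8 members: Usp13, Usp18, which acts on the ubiquitin-like protein Isg15, Usp51, and the near-identical copies Usp17la, Usp17lb, Usp17lc, Usp17ld and Usp17le. The tables list only places where a cluster was called, so absence from them does not separate low expression from a lack of binding.

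Behind the family's significant clusters stood few reads in replicate 2. The median IP read number was 14 for replicate 1 and 8 for replicate 2, and 24 of 95 (25.3%) and 87 of 150 (58.0%) held fewer than 10, beside 29.0% and 61.9% over all protein-coding genes. A SMInput read number of 1 stood behind 20 (21.1%) and 30 (20%) of them, beside 22.9% and 25.7% over all genes. Of the 95 significant clusters of replicate 1, 54 (56.8%, beside 53.3%) met a cluster of replicate 2, and all 54 had a log2(fold change) above 0 there (beside 8470 of 8529 over all genes), with a median of 2.08. Of the 150 in replicate 2, 64 (42.7%, beside 41.6%) met a cluster of replicate 1, 61 of these above 0 (beside 11241 of 11454), with a median of 1.92. The strongest cluster met was counted where there were several. A significant cluster of the other replicate was met by 28 (29.5%, beside 32.9%) and 24 (16.0%, beside 18.4%).

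Overlapping sites were found in 25.0% of the members with clusters, so nothing is drawn from how few groups of paralogs held several. Of 14 groups in the family, only Usp26, Usp29 and Usp37 had 2 members with an overlapping site. In the groups of Usp22, Usp28 and Usp42, the site was found in that gene and not in its relatives Usp27x and Usp51, Usp25, or Usp36. Usp27x and Usp36 had their significant 3′UTR clusters in replicate 2 alone. Of the 5 members set apart as a splicing factor or as lacking catalytic activity, Usp6nl alone had an overlapping site. That share of 20% stands beside 14.0% of all genes with a cluster. Usp39, the splicing factor, and Usp53 and Usp54 had their significant clusters in introns and in replicate 2 alone, with 4 to 6 IP reads each. In 10 of the 14 groups no member had an overlapping site.

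The rest of the pathway was read from 40 genes of deubiquitinase families without the Usp symbol, 6 cofactors of Usp proteins and 3 ubiquitin-activating enzymes. The 40 were listed by family and not by activity, so not all of them are deubiquitinases. Of these 40 genes, 39 had a cluster, 17 had a significant one in both replicates (43.6%, beside 33.0% of all genes), and 6 had overlapping sites (15.4%, beside 14.0%). These were Otub1, Otub2, Otud4, Zranb1, Bap1 and Cops5. Of the 6 cofactors Wdr48 alone had an overlapping site (16.7%), and of the 3 activating enzymes Uba6 alone (33.3%), beside 14.0% of all genes. The ubiquitin-activating enzyme Uba6 had a 3′UTR site of 3.57 in replicate 1 and 3.43 in replicate 2. It rests on 7 IP reads against 1 SMInput read and on 6 against 2. Its replicate 1 reads equal those of the Usp28 site, whose Benjamini-Hochberg adjusted P was 0.0847 there. Otub2, of the OTU family, had a 3′UTR site of 3.76 and 3.43, on 8 IP reads against 1 SMInput read and on 6 against 2. Otub1, of the same family, had one of 3.22 and 3.55, on 11 reads against 2 and on 13 against 4, where the clusters overlapped by 4 bases. Zranb1, which trims chains in Wnt signalling as Usp34 acts on axin, had a 3′UTR site of 2.41 and 2.33. Otud4 had 2.05 and 2.32 in its 3′UTR. Bap1, the deubiquitinase of histone H2A, had 4.08 and 2.31 in its 3′UTR, on 10 reads against 1 and on 22 against 16, with an overlap of 5 bases. Cops5, the catalytic subunit of the COP9 signalosome, had the only coding site among them, with 2.43 and 2.26.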

How the data were processed

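The authors deposited, for each cluster, a P value as −log10 and a fold change as log2, both from IP reads set against SMInput reads, and the fold change is scaled to the size of each library. The submitters' processing notes name cutadapt, Bowtie2 and STAR, and mm10. The authors called clusters in each replicate on its own. Genes and regions came from GENCODE release M21 basic transcripts at the centre of a cluster, with 3′UTR counted before coding sequence, 5′UTR and intron. Read numbers were recovered as the whole numbers that return both deposited values, by Fisher's exact test where any observed or expected number was below 5 and by Yates' corrected chi-square test elsewhere. A single solution was found for 99.9% of the clusters in replicate 1 and 99.7% in replicate 2 with a −log10 value above 0 and below 400. A SMInput read number of 1 may stand for 0. The recovery was tested on simulated data. Intervals on log2(fold change) are exact (Clopper-Pearson), those on shares are Wilson intervals, both of 95%, and both cover counting error only. Groups of samples were not tested against each other. Every member was accounted for. Up to 12 members with overlapping significant clusters were described in full, each by the overlapping pair whose lower log2(fold change) was largest. In each other class the members with the 2 highest values were given theirs. Members and lists were chosen with earlier results of these data known. A few genes of the pathway list are not reported here. The comparison of 3′UTR with coding medians, the split without Usp34, adjusted P values by role, 3′UTR lengths and positions, GC content, the join of touching clusters, and the genes and clusters given values beside this rule were chosen after their values were seen. Alternatives covered thresholds, adjusted P values, read minimums, gene assignment, members, overlap, region order and each replicate alone. Software was Python 3.11.15 with numpy 2.4.6, pandas 2.3.3, scipy 1.17.1, statsmodels 0.14.6 and pysam 0.24.0.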

Additional observations from a re-analysis of the deposited data

How the results depend on the processing

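No paired analysis was possible as an alternative because the deposited values already compare each IP with the SMInput of its own replicate. A test of the recovered reads over both replicates was not run, and no result comes from a test between groups of samples. With both thresholds at 3, the significant clusters were 21 in replicate 1 and 25 in replicate 2, 5 members had them in both replicates and 3, Usp1, Usp22 and Usp26, had overlapping ones, and the share in 3′UTRs was 57.1% and 76.0%. With the fold change threshold lowered to a log2 value of 1, the clusters were 166 and 244. Members with overlapping sites then rose to 18, with Usp4, Usp5, Usp7, Usp15, Usp19 and Usp47 gained. With Benjamini-Hochberg adjusted P values, 16 members had significant clusters in both replicates and 11 kept an overlapping site, without Usp28. With at least 10 IP reads, replicate 2 had 63 clusters, 60.3% of them in 3′UTRs, and 15 members were significant in both replicates. With centres in exons alone, replicate 2 had 99 clusters, and 54.1% and 62.6% lay in 3′UTRs, since introns leave the total. With clusters given to the gene whose transcription start was nearest, on any strand, 22.8% and 22.7% lay in the member's 3′UTR. Of the 12 members with overlapping sites 6 remained, while Usp11, Usp44, Usp49 and Usp50 were each assigned one. Usp50 had no significant cluster in its span on its own strand, so its assigned site lay outside the span or on the other strand. Either replicate alone gave 28 to 42 members with a significant cluster, against 26 in both and 12 with overlap. The median log2(fold change) of the 12 best sites was 2.54 to 2.95 in either replicate alone, against 2.93 for their mean. For the other changes the cause was not tested. Of 57 alternatives for the main results, 36 stayed near the main values and 21 moved. For counts, near means within a factor of 1.5. Alternatives for single sites are not among the 57. No share over all genes was computed for the alternatives, so their counts and shares are not set beside a background. Counts, shares and values of sites picked for passing in both replicates cannot change sign. Sites with under 10 IP reads, such as those of Usp28 and Usp6nl, have intervals too wide to rank, and 2 replicates give no spread beyond their difference.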
